A study of Branchiostoma belcheri with 2 samples.

Results

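Neural microRNAs were looked for in gill RNA of *Branchiostoma belcheri*, an amphioxus, that is, an invertebrate chordate with a simple nerve cord. The members were all array probes for miR-7, miR-9, miR-124, miR-129, miR-137, miR-153 and miR-219, taken by exact family number with any letter or arm suffix. There were 70 of them among 1686 miRNA probes. Of these 70, 12 were amphioxus probes, for *B. belcheri* (prefix bbe) or *Branchiostoma floridae* (bfl), and the other 58 were for zebrafish (dre), the frog *Xenopus tropicalis* (xtr), sea lamprey (pma), the tunicates *Ciona intestinalis* (cin), *Ciona savignyi* (csa) and *Oikopleura dioica* (odi), an acorn worm (sko), a sea urchin (spu) and *Xenoturbella bocki* (xbo). The LPS group was 1 array of gills from adult animals 12 h after injection into the cavum of 15 µl of PBS with lipopolysaccharide (LPS, a lipid of bacterial outer membranes) at 1 mg/ml. The control group was 1 array of gills after injection of the same dose of PBS, and its label gives no time. The labels name no genotype, and they do not say how many animals an array stands for.

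MicroRNAs (miRNAs) are short RNAs that pair with messenger RNAs, mainly through the seed at bases 2 to 8 of the miRNA, and lower their translation or stability. A hairpin precursor gives a 5p and a 3p strand, of which one is often much more abundant. miR-124 is the classic neuronal miRNA of bilaterian animals, miR-9 acts in neural progenitors of vertebrates, miR-7 marks neurosecretory and endocrine cells in vertebrates and annelids, and miR-219 is needed for oligodendrocyte maturation in mice. miR-137 acts in neuronal differentiation and at synapses in mammals, miR-129 and miR-153 are enriched in vertebrate brain, and miR-129-3p also promotes cilium assembly in human cells. None of these roles was measured on these arrays, and in a whole tissue a dim signal from few neurons cannot be told apart from a low level in many cells.

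The amphioxus probes are given first, since they show for which strand of each family the array holds a probe of this genus. They are written 5′ to 3′ as the array lists them, with the seed in capitals.
bbe-miR-7-3p: cAGUAAAUcacagucuuccuua
bbe-miR-9-3p: uAAAGCUAgguaaccaaaaca
bfl-miR-9-3p: aUAAAGCUagguaaccaaaaca
bfl-miR-124-5p: aGUGUUCAcggcgguccuuaau
bbe-miR-129a-3p: aAGCCCUUaccucaaaagggau
bfl-miR-129a-3p: aAGCCCUUaccucaaaagg
bbe-miR-129b-5p: aCCUUCUGugguuugggcgaucg
bfl-miR-129a-5p: cCUUUUUGugguuuggggcuuuu
bfl-miR-137: uAUUGCUUgagaauacacguga
bbe-miR-153-3p: uUGCAUAGucucaaaaguga
bfl-miR-153: uUGCAUAGucucagaaguga
bbe-miR-219-3p: aAGAACUGcgcuggacaucagc

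For miR-7, miR-9, miR-124 and miR-219 these amphioxus members were for the strand that is often the rarer one in other animals, so the usual strand was covered by other species' probes alone. The *B. floridae* probe for miR-9-3p has 1 base more at its 5′ end than the *B. belcheri* one, which moves the seed by 1 base. The 2 probes for miR-153 differ by 1 substitution outside the seed, A14G (the base of bbe-miR-153-3p first; positions here and below are counted from 1 at the 5′ end of the sequence compared with). bfl-miR-129a-3p is bbe-miR-129a-3p without its last 3 bases.

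The usual strands of other species that the results turn on were the following, again with the seed in capitals. They are shown because several are the same sequence with a shorter 3′ end or 1 changed base, so they may bind the same amphioxus RNA and are not separate measurements.
dre-miR-7a: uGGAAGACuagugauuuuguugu
xtr-miR-7: uGGAAGACuagugauuuuguug
dre-miR-7b: uGGAAGACuugugauuuuguu
pma-miR-7b: uGGAAGACuugugauuguguugu
dre-miR-9-5p: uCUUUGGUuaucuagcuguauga
xtr-miR-9-5p: uCUUUGGUuaucuagcuguaug
sko-miR-9: uCUUUGGUuaucuagcuguau
xtr-miR-9b-5p: uCUUUGGUuaccuagcuguauga
sko-miR-137: uAUUGCUUgagaauacacguag
xbo-miR-137: uAUUGCUUgagaauacacguug
dre-miR-124: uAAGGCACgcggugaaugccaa
dre-miR-129-5p: cUUUUUGCggucugggcuugcu
dre-miR-219: uGAUUGUCcaaacgcaauucuu

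Each probe had 2 repeat spots per array, and a spot value is an intensity in arbitrary units of the Cy3 channel. Detection meant that the repeat spots averaged more than the 95th percentile over 304 empty spots, which stood at 143.5 on the LPS array and 121.9 on the control array. Empty spots had a median of 99.8 (SD 30.6) on the LPS array and 107.3 (SD 10.6) on the control array. With 1 array per group no test between LPS and control was possible, and every error below is the spread of repeat spots, which is technical. Intensities of different probes are not compared, since each probe binds with its own strength.

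Signal of 4 of the 7 families was detected on both arrays with amphioxus probes, namely miR-7, miR-9, miR-129 and miR-137. In these 4 families, 5 of 8 amphioxus probes were detected on the LPS array and 6 on the control array, and the 5 shared ones had every spot above the threshold. No amphioxus probe of miR-124, miR-153 or miR-219 was detected on either array. In all, 5 of the 12 amphioxus members were detected on the LPS array and 6 on the control array, whereas over all 260 amphioxus probes the shares were 53.8% and 78.1%. Over all species 18 of 70 members were detected on the LPS array and 34 on the control array, that is 25.7% and 48.6%, beside 20.1% and 38.4% of all 1686 probes. Fewer members and fewer probes of any kind were thus detected on the LPS array.

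**Figure D1:**
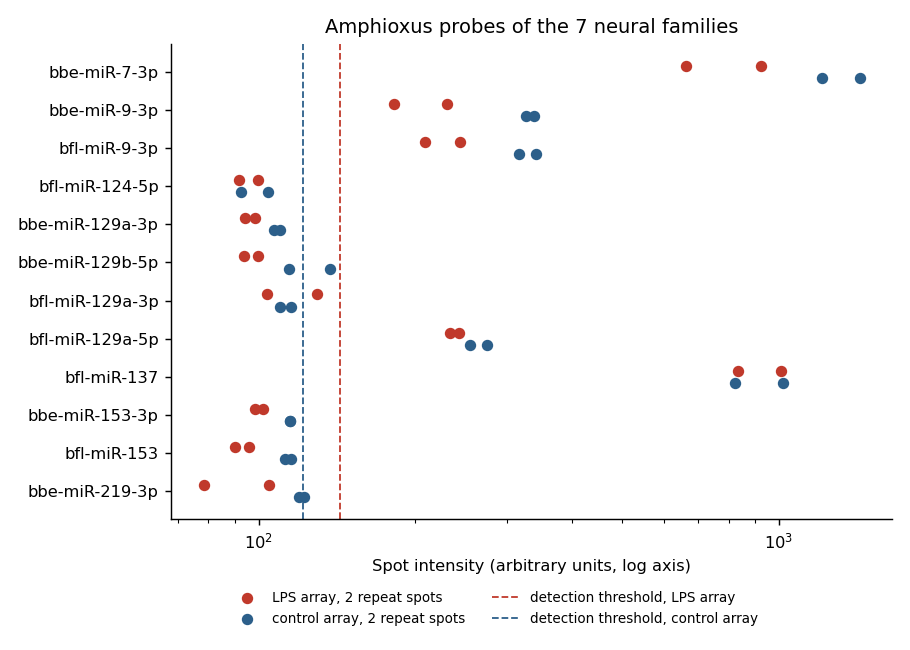
Spot intensities (arbitrary units, log axis) of the 12 amphioxus members, with 2 repeat spots on the LPS array in red and 2 on the control array in blue, and the detection threshold of each array as a dashed line (143.5 for LPS, 121.9 for control). The probes bbe-miR-7-3p, bbe-miR-9-3p, bfl-miR-9-3p, bfl-miR-129a-5p and bfl-miR-137 lie to the right of both lines with every spot, and the spots of the other 7 probes lie between 78.6 and 137.4.

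The probe bbe-miR-7-3p had 922 and 661 on the LPS array, against 1428 and 1209.7 on the control array. Its raw spots did not overlap and were lower on the LPS array. After background correction and quantile normalization between the arrays its log2 difference (LPS minus control, the direction of every difference below) was 0.49 ± 0.36 (SE over 2 repeat spots per array), which is under the 2-fold threshold used here. The sign depended on the scaling, with -0.72 when the arrays were not normalized to each other and 1.03 in the authors' deposited table.

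The usual strand, miR-7-5p, was read by probes of zebrafish and frog. dre-miR-7a had 2257 and 1972 on the LPS array, against 8500.2 and 8999.6 on the control array. xtr-miR-7, the first 22 bases of dre-miR-7a, had 2987 and 1955 on the LPS array, against 8589.9 and 8773 on the control array. Both were detected with every spot and had lower raw intensities on the LPS array without overlap. After normalization the log2 differences were -0.51 ± 0.13 for dre-miR-7a and -0.36 ± 0.30 for xtr-miR-7, neither 2-fold. They stayed below 0 in each of 6 scalings (quantile, none, a common median, calibration spots, loess and the deposited table), but with very unequal sizes (-2.05 to -0.32 for dre-miR-7a, -1.84 to -0.36 for xtr-miR-7).

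The miR-7-5p probes with changed bases outside the seed were detected on the control array alone. dre-miR-7b carries A10U relative to dre-miR-7a and ends 2 bases earlier. It had 102.5 and 113.7 on the LPS array, against 134.2 and 134.1 on the control array, so it passed there by a narrow margin. pma-miR-7b carries A10U and U17G and had 97.6 and 90.0 on the LPS array, against 307.3 and 240.2 on the control array. It was 1 of 3 members counted as at least 2-fold lower (log2 difference -1.31 ± 0.17), a call lost with median scaling (-0.31), calibration spots (-0.55) and a normexp offset of 200 (-0.61). Because the LPS spots lay below the threshold, the signal can only be bounded there, as at least 1.48-fold lower after quantile normalization. Of the miR-7-3p probes of other species only pma-miR-7a-3p was detected, on the control array, with 108.0 and 88.0 on the LPS array, against 118.4 and 135.8 on the control array.

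To be counted as higher or lower, a probe had to pass detection on either array and differ 2-fold or more after normalization, with no overlap between the normalized spots of one array and those of the other. Among the 35 members detected on at least 1 array, 3 were higher and 3 lower. Over all 684 probes detected on at least 1 array 10.5% were higher and 10.5% lower, and the members' 3 of 35 in each direction are near that background. These shares depended on the scaling: over all probes 72 were higher and 72 lower with quantile normalization, while lower ones made up 83.7% of those counted with no normalization, 15.4% with median scaling, 26.2% with calibration spots, 73.9% with loess and 56.9% in the deposited table. The median log2 difference of the 35 members was -0.23, beside -0.10 for all 684.

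miR-9 gave the widest spread of differences within 1 family. The amphioxus probes were for the 3p strand. bbe-miR-9-3p had 230.1 and 181.7 on the LPS array, against 326 and 338 on the control array. bfl-miR-9-3p had 209 and 244 on the LPS array, against 316 and 342 on the control array. Raw spots of both were lower on the LPS array without overlap, while the normalized log2 differences were 0.06 ± 0.25 and 0.30 ± 0.20, far from 2-fold and of a sign that changed with the scaling. The 4 other 3p probes of the family that share one of these seeds, from zebrafish, lamprey, frog and sea urchin, carry 4 to 6 substitutions relative to bbe-miR-9-3p, and none was detected on either array.

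The miR-9-5p probes went in opposite directions although their sequences are nearly the same. dre-miR-9-5p had 687 and 744 on the LPS array, against 1987 and 1777 on the control array. xtr-miR-9-5p, which lacks only the last base of it, had 214 and 245 on the LPS array, against 1621 and 1407 on the control array. sko-miR-9, which lacks the last 2 bases, had 1879.6 and 1613 on the LPS array, against 1562 and 631 on the control array. Of these 3 probes, sko-miR-9 was the only one with both LPS spots above its control spots, and its control spots lay over 2-fold apart.

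After normalization dre-miR-9-5p stood at a log2 difference of -0.15 ± 0.11 and was not counted. xtr-miR-9-5p was 3.28-fold lower (-1.71 ± 0.18). xtr-miR-9b-5p, which differs from dre-miR-9-5p by U11C, had 235.8 and 229 on the LPS array, against 1228 and 1188 on the control array, and was 2.43-fold lower (-1.28 ± 0.06). sko-miR-9 was 4.73-fold higher (2.24 ± 0.68), and 1.66 or 2.83 on the log2 scale with a single repeat spot per array. With a normexp offset of 200, xtr-miR-9b-5p stood at -0.98, just under 2-fold. Both frog probes stayed at least 2-fold lower in all 6 scalings, while sko-miR-9 was at 0.86 with no normalization and dre-miR-9-5p at -0.06 in the deposited table. No single direction for miR-9-5p can therefore be given from these arrays. The *C. intestinalis* probe cin-miR-9-5p, with 4 substitutions and 3 bases fewer, was not detected (106.9 and 103.0 on the LPS array, 105.1 and 94.4 on the control array).

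**Figure D2:**
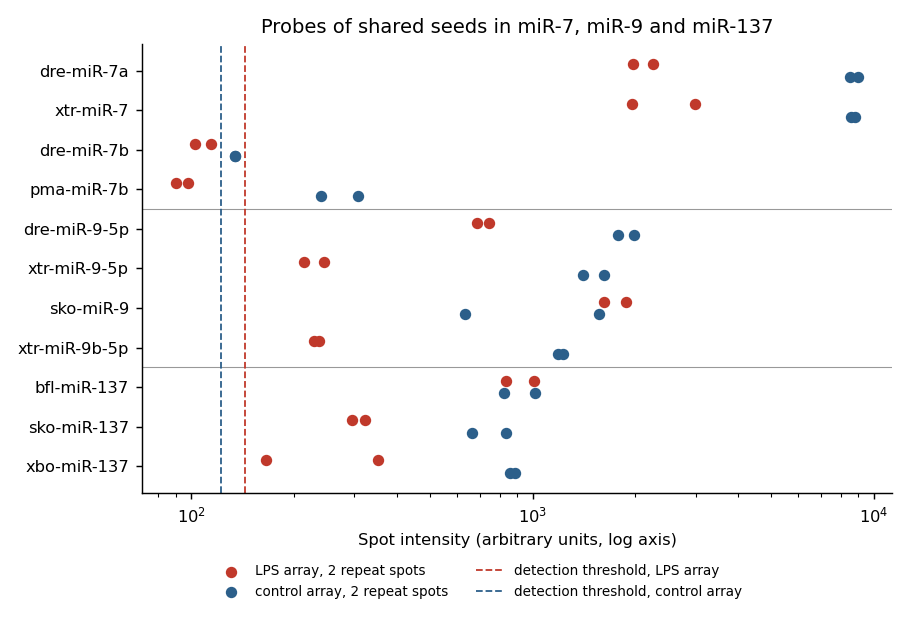
Spot intensities (arbitrary units, log axis) of probes that share a seed in miR-7-5p (top), miR-9-5p (middle) and miR-137 (bottom), with 2 repeat spots on the LPS array in red and 2 on the control array in blue and the detection thresholds as dashed lines. The spots of sko-miR-9 are higher on the LPS array and those of bfl-miR-137 overlap, while the other 9 probes have lower spots on the LPS array.

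miR-137 was detected with the amphioxus probe on both arrays. bfl-miR-137 had 835 and 1009.9 on the LPS array, against 1016 and 823 on the control array, so its raw spots overlapped, whereas its normalized spots did not. It was counted as 2.64-fold higher after quantile normalization (1.40 ± 0.20), but stood at 0.05 with no normalization between the arrays and was not counted there. It was under 2-fold with calibration spots (0.93) and loess (0.65) as well, and past it with median scaling (1.17) and in the deposited table (1.24). Its place relative to the median of all detected probes also varied. It was 1.499 with quantile normalization, 1.485 in the deposited table, 0.82 with loess and 0.23 with no normalization, median scaling and calibration spots. The value 0.23 is shared by construction, since those settings differ only by a constant on the LPS array. The 2-fold call thus depended on the scaling.

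Probes of other species with the first 20 bases of bfl-miR-137 behaved otherwise. sko-miR-137, with G21A and A22G, had 324 and 296 on the LPS array, against 835 and 666 on the control array. xbo-miR-137, with G21U and A22G, had 352 and 165 on the LPS array, against 886 and 858 on the control array. Neither was counted, at log2 differences of 0.10 ± 0.15 and -0.65 ± 0.82, and the repeat spots of xbo-miR-137 on the LPS array were over 2-fold apart. With no normalization they stood at -1.23 and -1.83.

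The frog and zebrafish probes, xtr-miR-137 and dre-miR-137, carry G9A and A17G besides changes at the ends and were not detected on either array. pma-miR-137-3p had 90.9 and 170.5 on the LPS array, against 118 and 126 on the control array, and counted as detected on the control array by a mean of 122.2. Signal in this family was thus found with the probes whose bases 1 to 20 equal those of the amphioxus sequence, and otherwise at the threshold.

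Signal on mismatched calibration spots of the maker also differed between the arrays. By their names these spots pair a perfect match with a mismatched version, and the mismatched spots kept a median of 1.19% of the signal of the perfect match on the LPS array and 9.02% on the control array, after subtraction of the empty-spot median. In 23 of 25 pairs the LPS array had the lower share. Its part in the differences of the other species' probes of miR-7, miR-9 and miR-137 was not tested.

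For miR-129 the 5p strand was found and the 3p strand was not. bfl-miR-129a-5p had 234 and 242 on the LPS array, against 275 and 255 on the control array. Its raw spots were lower on the LPS array without overlap, whereas the normalized log2 difference was 0.72 ± 0.08, under 2-fold, and between 0.01 and 1.13 over the scalings. bbe-miR-129b-5p, 8 edits from it, had 99.9 and 93.5 on the LPS array, against 114.4 and 137.4 on the control array, and was detected on the control array by 1 of its 2 spots.

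Vertebrate probes for miR-129-5p lie 5 or 6 edits from bfl-miR-129a-5p. dre-miR-129-5p had 179 and 177 on the LPS array, against 535 and 412 on the control array, and was not counted at -0.61 ± 0.14, with values from -1.33 to -0.21 over the scalings. pma-miR-129a-5p, with C12U relative to it, had 110.7 and 105.8 on the LPS array, against 202 and 167 on the control array. xtr-miR-129, 1 base shorter, had 123.5 and 115.5 on the LPS array, against 178 and 165 on the control array. All 3 had lower raw spots on the LPS array without overlap. The last 2 were detected on the control array only. For pma-miR-129a-5p the decrease was at least 1.04-fold after quantile normalization. That direction depended on the scaling, since the log2 difference of this probe exceeded 0 in 2 of 6 scalings (0.58 for a common median, 0.34 for calibration spots).

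Spots for miR-129-3p stayed at the level of empty spots. bbe-miR-129a-3p had 94.0 and 98.6 on the LPS array, against 107.2 and 109.8 on the control array. bfl-miR-129a-3p had 103.7 and 129.2 on the LPS array, against 110.03 and 115 on the control array. dre-miR-129-3p was not detected either.

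miR-124 was not detected with its amphioxus probe, and 6 of the 9 probes of other species passed on the control array. bfl-miR-124-5p had 91.5 and 99.8 on the LPS array, against 92.4 and 104 on the control array, all below the thresholds. The usual 3p strand, with the seed AAGGCAC, had 4 probes with that seed, 0 of them detected on the LPS array and 3 on the control array. dre-miR-124 had 118.4 and 113.5 on the LPS array, against 129.8 and 141.9 on the control array. spu-miR-124 had 103.2 and 100.8 on the LPS array, against 134.5 and 139.9 on the control array.

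Probes of *O. dioica* and frog for the 3p strand followed. odi-miR-124a, with C20U relative to dre-miR-124, had 92.4 and 106.8 on the LPS array, against 129.5 and 124.5 on the control array. xtr-miR-124, which starts 1 base earlier, had 75.8 and 132.9 on the LPS array, against 121.6 and 123.0 on the control array. odi-miR-124b, with G9U in addition, was not detected. The 2 *C. intestinalis* probes for miR-124-5p, at least 8 edits from any amphioxus probe, were the family's only ones above the threshold on the LPS array, each by 1 of 2 spots. cin-miR-124-1-5p had 138.2 and 164 on the LPS array, against 177 and 125 on the control array. cin-miR-124-2-5p had 139 and 170.5 on the LPS array, against 205 and 134 on the control array. Their means on the control array, 151.1 and 169.7, also passed the 99th percentile of the empty spots there, 128.1. None of the 6 detected miR-124 probes was counted.

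miR-219 signal was found on the control array with the 5p strand. bbe-miR-219-3p had 78.6 and 104.7 on the LPS array, against 122.3 and 119.4 on the control array, and was not detected. Of the 8 probes with the 5p seed GAUUGUC, 1 was detected on the LPS array and 7 were on the control array. dre-miR-219 had 81.7 and 85.7 on the LPS array, against 154.4 and 148.1 on the control array. csa-miR-219, with U19A and U21A, had 101.0 and 121.8 on the LPS array, against 207.9 and 203.4 on the control array.

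Most of the remaining miR-219-5p probes were likewise detected on the control array alone. xtr-miR-219 had 90.4 and 104.9 on the LPS array, against 163 and 192 on the control array. xbo-miR-219 had 142.6 and 102.0 on the LPS array, against 193 and 168 on the control array. sko-miR-219 had 93.6 and 87.1 on the LPS array, against 142.5 and 129.5 on the control array, and cin-miR-219-5p had 94.7 and 117.3 on the LPS array, against 153.3 and 143.8 on the control array. spu-miR-219-5p, with A10G in the middle of the sequence, was not detected. odi-miR-219 had 318 and 115 on the LPS array, against 139.6 and 141.8 on the control array, and its log2 difference of 1.03 ± 1.15 was not counted because the normalized spots overlapped.

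Bounds for the miR-219 probes detected on the control array alone were small. After quantile normalization the decrease was at least 1.15-fold for csa-miR-219, at least 1.03-fold for xbo-miR-219 and at least 1.01-fold for xtr-miR-219. For the other 3 no fold can be given. The bounds depended on the scaling, since each of the bounded probes had a log2 difference over 0 in 2 of 6 scalings. With a common median these were 0.415, 0.775 and 0.486 in the same order. Of the miR-219 probes detected on the control array alone, all but xbo-miR-219 had a mean on the LPS array below the control array's threshold of 121.9 as well. The mean of xbo-miR-219 was 122.3. With both repeat spots required above the threshold, 0 of 11 miR-219 probes were detected on the LPS array and 7 on the control array.

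miR-153 had the most probes of the 7 families and nearly no signal. None of the 10 probes with the seed UGCAUAG was detected on either array. bbe-miR-153-3p had 102.1 and 98.6 on the LPS array, against 114.7 and 114.8 on the control array. bfl-miR-153 had 95.7 and 89.95 on the LPS array, against 112.2 and 115.3 on the control array. The single detected probe, pma-miR-153-5p, had 314.8 and 105.9 on the LPS array, against 106.5 and 104.1 on the control array. Its raw spots overlapped and its normalized spots did not. It was counted as higher (1.46 ± 1.21, at least 2.25-fold) on the strength of 1 spot, its other spot lay below the threshold, and with that spot alone the log2 difference was 0.28.

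**Figure D3:**
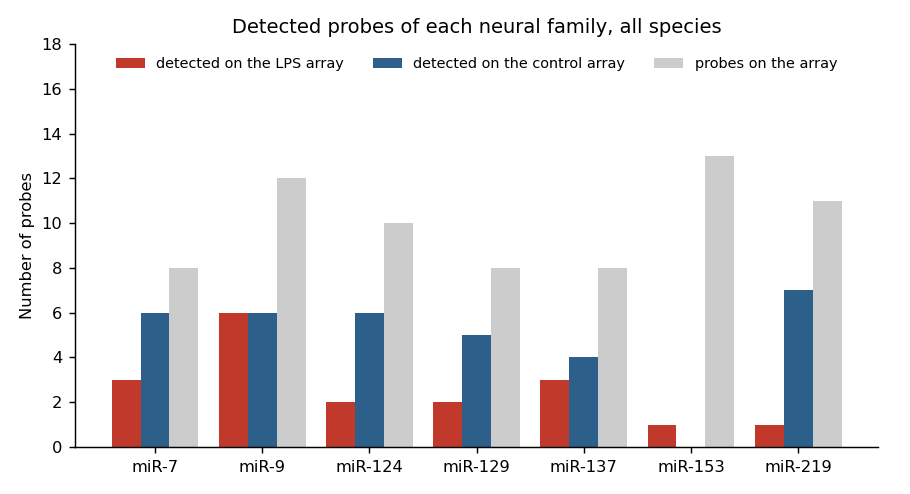
Number of probes of each neural family detected on the LPS array (red) and on the control array (blue), beside the number of probes of that family on the array (grey). miR-9 had 6 of 12 probes detected on each array, miR-219 had 1 of 11 on the LPS array and 7 of 11 on the control array, and miR-153 had 1 and 0 of 13.

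Stricter detection left miR-124, miR-153 and miR-219 with no probe on the LPS array. When both spots had to exceed the threshold, miR-7 had 3 of 8 probes on the LPS array and 5 on the control array, miR-9 had 6 of 12 on each, miR-129 had 2 and 4 of 8, and miR-137 had 3 and 3 of 8. miR-124 then had 0 and 5 of 10, and miR-153 had 0 on both arrays. At the 99th percentile of the empty spots (230.2 on the LPS array, 128.1 on the control array) bbe-miR-7-3p, bfl-miR-129a-5p and bfl-miR-137 were the amphioxus members left on the LPS array, while bbe-miR-9-3p and bfl-miR-9-3p remained on the control array alone. Shares of all probes under these stricter rules are not given here, so the losses cannot be called particular to these families. The 35 members detected on neither array had mean intensities of 82.9 to 119.9 on the LPS array and 96.6 to 121.2 on the control array.

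Over the 6 scalings, 7 of the 35 members had a log2 difference above 0 in each, 8 were below 0 in each and 20 changed sign. The 7 were bfl-miR-137, bfl-miR-129a-5p, sko-miR-9, odi-miR-219, pma-miR-153-5p and the 2 *C. intestinalis* miR-124-5p probes. The 8 were dre-miR-7a, xtr-miR-7, pma-miR-7b, dre-miR-9-5p, xtr-miR-9-5p, xtr-miR-9b-5p, xbo-miR-137 and dre-miR-129-5p. No amphioxus probe was among the 8. All scalings rest on the same arrays, so a shared sign does not cover the spread of repeat spots. With quantile normalization and 1 repeat spot per array, odi-miR-219 (-0.13) and cin-miR-124-2-5p (-0.12) fell below 0. Likewise xbo-miR-137 rose above it (0.15). No normalization, median scaling and calibration spots differ only by a constant on the LPS array, so a probe's place relative to all probes is the same in them by construction. Relative to the median of all detected probes under the same scaling, which ran from -0.24 to 0.94, the 7 stayed above it in each scaling and 13 members stayed below it. Among these 13 were 5 miR-219-5p probes (csa-miR-219, dre-miR-219, xtr-miR-219, sko-miR-219 and cin-miR-219-5p) and pma-miR-129a-5p, but not dre-miR-9-5p. Of the 6 amphioxus members detected on at least 1 array, bfl-miR-137 was counted as higher and 0 as lower. Over all 204 amphioxus probes detected on at least 1 array, 16.7% were higher and 3.92% lower, so a single higher probe among 6 is at the background of amphioxus probes.

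**Figure D4:**
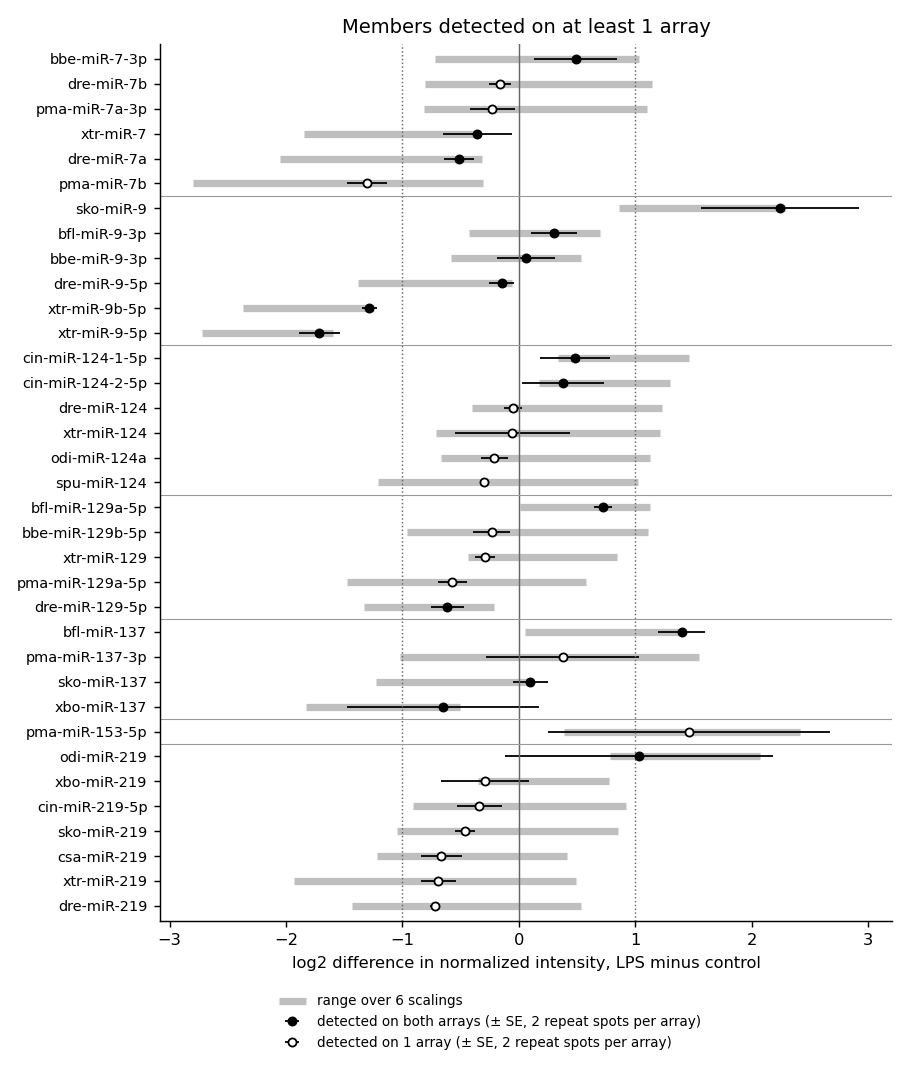
Log2 difference in normalized intensity (LPS minus control) of the 35 members detected on at least 1 array, by family, with the SE over 2 repeat spots per array as black bars and the range over 6 scalings as grey bars. Dotted lines mark 2-fold. xtr-miR-9-5p (-1.71) and sko-miR-9 (2.24) stand at opposite ends within miR-9, and 20 grey bars cross 0.

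Lists for other cell types gave the following beside the neural families, on the same rules. For comparison, 20.1% of all 1686 probes were detected on the LPS array and 38.4% on the control array. Among amphioxus probes these shares were 53.8% and 78.1%. Of the 684 probes detected on at least 1 array, 10.5% were higher and 10.5% lower. Further neural miRNAs (miR-128, miR-132, miR-138, miR-181, miR-190, miR-212 and miR-218) had 4 of 38 probes detected on the LPS array and 11 on the control array. Among the 12 detected on at least 1 array, 2 were higher and 1 lower. The counted ones, named after their values were seen, were all miR-190: sko-miR-190 (2.12 ± 0.28) and bfl-miR-190 (1.13 ± 0.09) were higher, and bbe-miR-190-3p, of the opposite strand, was lower (-2.24 ± 0.08). The sensory cluster of the miR-183, miR-96 and miR-182 families had 8 of 29 probes detected on the LPS array and 18 on the control array. Of its 19 probes detected on at least 1 array, 1 was counted (pma-miR-183-3p, higher, 1.08 ± 0.56, at least 1.56-fold). This probe had 113.7 and 184.6 on the LPS array, against 102.2 and 94.6 on the control array. Its detection thus rested on 1 spot. Its amphioxus probes were detected in 3 of 10 cases on the LPS array and 9 of 10 on the control array.

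Muscle miRNAs (miR-1, miR-133, miR-206, miR-208 and miR-499) had 6 of 40 probes detected on the LPS array and 21 on the control array. Among the 22 detected on at least 1 array, 0 were higher and 3 lower, beside 10.5% in each direction over all probes. The 3, again named after their values were seen, were cin-miR-1-3p (at least 2.95-fold lower), pma-miR-1a-3p (at least 1.43-fold) and pma-miR-1b (at least 1.15-fold). The ciliated-cell and epithelial miRNAs of miR-34, miR-449, miR-200, miR-141, miR-429 and miR-8 had 24 of 50 probes detected on the LPS array and 36 on the control array. Among the 37 detected on at least 1 array, 6 were higher and 6 lower. For the amphioxus probes of that list the counts were 13 of 17 on the LPS array and 16 on the control array, against 5 and 6 of 12 for the 7 neural families. Over all 260 amphioxus probes the shares were 53.8% and 78.1%. The further neural miRNAs had 2 amphioxus probes, both detected on both arrays. Among the 7 neural families, the amphioxus probes of miR-7, miR-9, miR-124 and miR-219 were for the strand that is often the rarer one. No test was made of these differences, since probes of a list can share targets.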

How the data were processed

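Per the labels, total RNA was extended with a poly(A) tail, joined to a Cy3 tag and hybridised to 1-colour miRNA arrays, 1 for LPS and 1 for control. Per the file headers, each deposited spot value is a median of pixel intensity, linear and without a background column. The highest spot value was 76956.95 on the LPS array and 65535 on the control array. Whether spot values were rescaled or cut off at the top before deposit was not tested. The authors also deposited 1 processed intensity per probe and array, but no source used here gives its background or scaling steps, nor the scanner. Each array had 3968 spots, 3372 of them for miRNAs, in 2 repeats per probe. The empty spots and the number of arrays limit the precision.

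For background correction limma 3.58.1 was run in R 4.3.3 (normexp with an offset of 50 on all spots). Values were then converted to log2, quantile-normalized over the miRNA spots and averaged over repeat spots. This calculation was tested on simulated arrays, both drawn from the control array, with only bright probes changed. Differences of scale between the arrays and changes near the detection threshold were therefore not simulated. Nor was the wider spread of empty spots on the LPS array (SD 30.6, against 10.6 on the control array). Probes detected on 1 array received a lower bound of the fold after quantile normalization. It divides the brighter array's normalized mean by that of the dimmer array or, if larger, by the dimmer array's lowest detected value. Under another scaling the bound can differ or be lost. Scalings tried were quantile, none, a common median, calibration spots, loess (span 0.4) and the deposited table as log2 after adding 16. Substitutions come from ungapped alignments, and edits are insertions, deletions and substitutions together. All amphioxus members and all detected members were named by rule, and undetected probes of other species were named after their values were seen, to show a shared sequence. Members and lists were chosen with earlier results of these data known. No genomic coordinates were used.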

Additional observations from a re-analysis of the deposited data

How the results depend on the processing

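No paired analysis was possible because each group had 1 array. Counts of members higher and lower (3 and 3) depended most on the scaling. Higher counts were 1 with no normalization between the arrays, 15 with median scaling and 6 with calibration spots. Over all 684 probes detected on at least 1 array they were 25, 314 and 177 in the same order. Median scaling and calibration spots move every LPS value by a constant. The cause of the difference between the arrays was not tested. Lower counts were 5 with a normexp offset of 16, 1 with an offset of 200, 9 with no normalization, 6 with loess and 10 in the deposited table. Lower counts over all probes were 98 and 51 with those offsets, 85 with loess and 177 in the deposited table. With no normalization, lower probes made up 83.7% of all probes counted as higher or lower. A 1.5-fold threshold gave 7 lower, and a 4-fold threshold 1 higher and 0 lower, by construction. Over all probes these counts were 125 lower, and 9 higher and 31 lower. Leaving out members of discordant repeat spots, chosen after seeing the data, left 1 higher. The members' median log2 difference was 0.85 with median scaling, 0.61 with calibration spots and -0.51 in the deposited table. The median of all detected probes was 0.94, 0.70 and -0.24 in the same order. Relative to all probes the members' median was thus -0.10, -0.10 and -0.27, equal for median scaling and calibration spots by construction. At the 99th percentile 10 members were detected on the LPS array. That rule raises the threshold for every probe, and the share of all probes passing it is not given here. None of the 6 counted members changed sign under a scaling, an offset or with 1 repeat spot. Signal near the empty spots limits miR-124, miR-153 and miR-219.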
